A study of Mus musculus with 3 samples.

Results

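The genes described here encode proteins that detect DNA damage, signal it to the cell cycle or repair it. They are 38 genes chosen by name, with 68 probes among the 41174 probes of the array, which stand for 27389 genes. RNA was taken from MigA9, a line of mouse hematopoietic cells that the homeobox protein Hoxa9 has transformed, grown in medium with GM-CSF-conditioned supernatant. The cells received 2.5 µM DB818, a compound that binds in the minor groove and is known for keeping HOXA9 from its sites, for 6, 12 or 24 h, or were left untreated, and both groups carry Hoxa9. Treated RNA (Cy5) and untreated RNA (Cy3) were hybridised together to 1 array for each time. The dyes were never swapped, so the treatment and a dye bias of a probe cannot be told apart in a ratio. The labels do not say whether the untreated RNA of the 3 arrays came from separate cultures. The question was whether transcripts of these pathways differed in cells exposed to a DNA ligand.

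DNA breaks are sensed by the kinases ATM and ATR, which activate the checkpoint kinases CHK2 and CHK1 and, through p53, genes such as Cdkn1a and Mdm2. Breaks of both strands are repaired by homologous recombination, which needs the MRE11, RAD50 and NBN complex, BRCA1 and BRCA2, or by end joining through Ku and DNA-PK, whereas base excision, mismatch and nucleotide excision repair remove damage from 1 strand. Much of this machinery is controlled by modification of proteins already present, and transcripts of recombination and replication genes also follow the cell cycle.

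Ratios are treated over untreated on the log2 scale, and signals are background-corrected, normalised intensities in arbitrary units that are not compared between probes. Each signal includes an offset of 50 added in background correction, so ratios of dim genes are drawn toward 1. A gene was measured on an array where at least 1 of its probes was well above background with each dye. This held for 11447, 11475 and 11565 genes at 6, 12 and 24 h, and 10956 were measured at every time. The SD of the ratio between repeated spots of a probe was 0.046, 0.034 and 0.051 on the 3 arrays, and the number of arrays limits the precision. Of 16 hematopoietic and myeloid markers 15 were above background in both channels of every array, with Hoxa10 the exception. Of 15 markers of other cells 1 to 3 were above background in a given channel of a given array, and Pecam1 alone was so in both channels of every array. Of the 15 myeloid markers tested 5 rose and 6 fell (33.3% and 40%), where 20.1% and 7.86% of all genes did by the test described below. The part of that difference in the results below was not tested.

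Few of the repair and checkpoint genes differed, and the differences were small. Of the 36 members measured at every time, 4 rose in the mean over the times by limma's moderated test (Benjamini-Hochberg adjusted p below 0.05 over all 10956 genes): Pms2, Mre11a, Brca1 and Brca2. None of the 36 fell. The members' shares of 11.1% that rose and 0% that fell were no larger than the 20.1% and 7.86% of all genes tested. At an unadjusted p below 0.05 there were 8 of the 36 members. Of all genes, 20.1% rose and 7.86% fell at the stricter adjusted threshold already. The 3 times stood in for replicates in this test, so its error is the spread between times. Without the 12 h array 0 members passed, without the 24 h array Mre11a alone did, and without the 6 h array the same 4 did. Median centring subtracts the same value from every ratio of an array, whereas loess follows the brightness of the spots. With median centring in place of loess 9 members rose and 16 fell, where 37.9% and 40.9% of all genes did. Of the 36 members 19 changed sign. Of the 4 members that rose, Brca2 and Mre11a then stood at -0.10 and -0.08, Pms2 at 0.01 and Brca1 at 0.28. The median mean ratio was 0.01 over the members and 0.03 over all genes.

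At single times, described by size without a test, 0 members had a ratio of 0.32 or more in size, which is 25% higher or 20% lower than in untreated cells. Of all genes measured, 1.79%, 1.39% and 2.72% were that much higher at 6, 12 and 24 h, and 0.725%, 0.723% and 1.46% that much lower. Members ranged between -0.13 and 0.16 at 6 h, between -0.10 and 0.22 at 12 h and between -0.22 and 0.28 at 24 h. At 1.1-fold, a size chosen after these values were seen, 1, 5 and 5 members were higher at 6, 12 and 24 h, where 17.1%, 15.4% and 19% of all genes were. At that size 0, 0 and 1 members were lower, where 7.35%, 6.88% and 9.11% of all genes were. The SD of the ratio across members was 0.077, 0.076 and 0.10 at the 3 times, against 0.13, 0.14 and 0.15 across all genes. These counts and ranges hold on the scale with the offset. With plain background subtraction Mre11a at 12 h and Ddb2 and Pms2 at 24 h were at least 25% higher. Of all genes 3.30% and 5.87% were, and 0 members were 20% lower at those times. With Agilent's processed signals the lowest member ratio was -0.49 at 12 h and the highest 0.54 at 24 h.

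**Figure D1:**
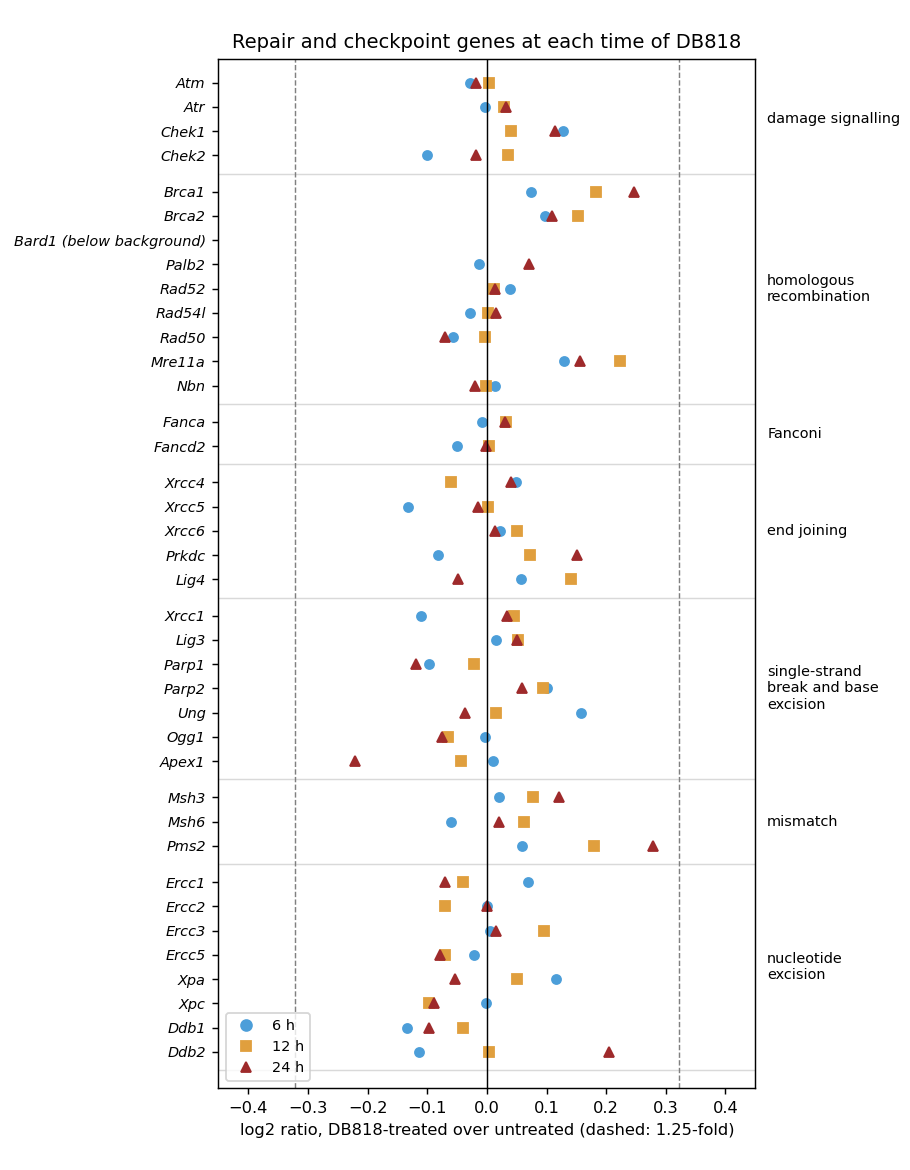
Log2 ratio of treated to untreated cells (x axis) for each of the 38 members (y axis, grouped by role), with 1 point for each array: circles 6 h, squares 12 h and triangles 24 h. Each point lies between the dashed lines at 0.32 in size (25% higher or 20% lower), the highest being Pms2 at 24 h (0.28) and the lowest Apex1 at 24 h (-0.22), and Bard1 has no point because it was not above background.

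Among the damage signalling genes none of 4 passed the test. Atm, the kinase that responds to double-strand breaks, had signals of 91.6, 89.0 and 92.4 in treated cells at 6, 12 and 24 h, against 93.5, 88.8 and 93.6 in untreated cells. Atr, the kinase that responds to single-stranded DNA at stalled forks, had 355, 333 and 332 in treated cells, against 356, 326 and 325 in untreated cells. Neither gene was on 1 side of its untreated level at every time, and the mean ratios were -0.01 ± 0.03 for Atm and 0.02 ± 0.03 for Atr (SE of the fit over 3 arrays, as for each mean ratio below). Each value averages measured probes whose means differed in sign, -0.05 and 0.02 for Atm and -0.03 and 0.07 for Atr.

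Chek1, the checkpoint kinase downstream of ATR, had signals of 122, 121 and 127 in treated cells, against 111, 117 and 117 in untreated cells. It was higher in treated cells at each time, by 0.13, 0.04 and 0.11, and its mean of 0.09 ± 0.03 did not pass (limma, adjusted p = 0.068). It passed with plain background subtraction (0.17, adjusted p = 0.032) and with the brightest probe alone (0.10, adjusted p = 0.048), and it fell by 0.26 with median centring (adjusted p = 0.00057). Chek2, the kinase downstream of ATM, had 114, 113 and 116 in treated cells, against 122, 110 and 117 in untreated cells. Its ratios of -0.10, 0.04 and -0.02 had no common sign, and its mean was -0.03 ± 0.04.

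Of the 9 members of homologous recombination 7 could be tested and 3 rose, where 20.1% of all genes did. The call of Mre11a rested on 1 of its probes. Brca1 had 1 measured probe on each array, and Brca2 had 1 at 6 h. Brca1, a ubiquitin ligase subunit that promotes end resection, had signals of 376, 427 and 390 in treated cells, against 357, 376 and 329 in untreated cells. It was higher in treated cells at each time, by 0.07, 0.18 and 0.25, with a mean of 0.17 ± 0.04 (limma, adjusted p = 0.023). One of its 2 probes carried this value, the other being below background in at least 1 channel on each array.

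Brca2 is a mediator of strand exchange at resected ends. Its brighter probe had signals of 265, 292 and 309 in treated cells, against 248, 251 and 278 in untreated cells, and a second probe, near background, was measured at 12 and 24 h only. The gene's ratios of 0.10, 0.15 and 0.11 were above 0 at each time, with a mean of 0.12 ± 0.03 (limma, adjusted p = 0.028). From the brighter probe alone the mean was 0.16.

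Mre11a, the nuclease of the complex that first binds broken ends, rose by 0.17 ± 0.03 (limma, adjusted p = 0.013), with ratios of 0.13, 0.22 and 0.16, but its probes differed. Probe A_52_P47006, which the file names by the cDNA clone AK161013, had signals of 150, 137 and 142 in treated cells, against 106, 101 and 99.4 in untreated cells. Its ratios were 0.50, 0.45 and 0.51, with a mean of 0.49 ± 0.03 in a fit over all probes (limma, adjusted p = 0.0014). Probe A_51_P446678, on the RefSeq transcript, had 391, 409 and 347 in treated cells, against 380, 409 and 355 in untreated cells. It lay close to its untreated level at each time, with a mean of 0.00 ± 0.03. The third probe, dim and measured at 6 and 24 h, stood at -0.15 and -0.01. Without A_52_P47006 the gene's mean was -0.03, so the call rested on that probe. Whether the probes measure different transcripts was not tested.

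The other recombination genes did not pass. Rad50 and Nbn, the partners of MRE11, had means of -0.04 ± 0.03 and 0.00 ± 0.03. Rad52, an annealing protein, had 0.02 ± 0.03 and Rad54l, a motor protein that moves along DNA, 0.00 ± 0.03. Palb2, which joins BRCA1 to BRCA2, was measured at 6 and 24 h only, with ratios of -0.01 and 0.07. At 12 h the probe measured at those times was well above background in treated cells alone. Its signals there were 72.6 in treated and 71.0 in untreated cells, and no ratio was counted. Bard1, the partner of BRCA1, was not well above background in either channel of any array. In the Fanconi pathway, which repairs crosslinks, Fanca of the core complex (0.02 ± 0.03) and Fancd2, its ubiquitinated substrate (-0.02 ± 0.03), did not pass.

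Mismatch repair held the member with the highest mean. Pms2, an endonuclease of mismatch repair, rose by 0.17 ± 0.04 (limma, adjusted p = 0.031), with ratios of 0.06, 0.18 and 0.28. Its brighter probe had signals of 224, 230 and 220 in treated cells, against 205, 203 and 181 in untreated cells. A second probe near background entered the value at 6 h only, and without it the ratio at 6 h was 0.12 and the mean 0.19. Msh3, which recognises larger loops, had signals of 280, 336 and 308 in treated cells, against 276, 318 and 284 in untreated cells. Its ratios of 0.02, 0.08 and 0.12 were above 0 at each time and its mean of 0.07 ± 0.03 did not pass (limma, adjusted p = 0.13). Msh6, which recognises base mismatches, had a mean of 0.01 ± 0.03.

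The windows around the transcription starts of the 4 members that rose, and of Ddb1 and Apex1, the members with the lowest means, are given below from RefSeq (GRCm38.p6), each with 300 bases, 5′ to 3′ on the gene's strand. They are shown because short motifs differed between them. Capitals mark matches, on either strand, to the E-box CACGTG, to TGACGT, the core of the cyclic AMP response element, to CCAAT and to the E2F motifs TTTGGCGC, TTTCCCGC, TTTCGCGC and TTTGCCGC.
Pms2, chr5:143909751-143910050, plus strand: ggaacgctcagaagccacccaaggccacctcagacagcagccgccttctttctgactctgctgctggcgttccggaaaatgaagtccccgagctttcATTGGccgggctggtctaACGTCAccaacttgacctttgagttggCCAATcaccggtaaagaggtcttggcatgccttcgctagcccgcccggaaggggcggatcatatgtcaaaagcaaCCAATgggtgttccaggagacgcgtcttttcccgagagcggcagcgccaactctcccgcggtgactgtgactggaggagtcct
Mre11a, chr9:14784404-14784703, plus strand: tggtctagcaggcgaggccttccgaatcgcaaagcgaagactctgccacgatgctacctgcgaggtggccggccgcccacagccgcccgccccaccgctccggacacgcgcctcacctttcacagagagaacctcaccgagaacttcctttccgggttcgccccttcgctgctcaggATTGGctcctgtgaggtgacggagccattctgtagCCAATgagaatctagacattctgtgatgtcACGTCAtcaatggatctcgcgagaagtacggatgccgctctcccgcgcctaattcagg
Brca1, chr11:101551906-101552205, minus strand: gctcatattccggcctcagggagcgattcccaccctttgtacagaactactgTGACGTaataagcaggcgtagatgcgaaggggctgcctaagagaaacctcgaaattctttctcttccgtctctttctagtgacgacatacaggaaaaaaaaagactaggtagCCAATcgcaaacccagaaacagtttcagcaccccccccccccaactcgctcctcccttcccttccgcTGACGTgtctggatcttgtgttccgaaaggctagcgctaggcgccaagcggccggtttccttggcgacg
Brca2, chr5:150522371-150522670, plus strand: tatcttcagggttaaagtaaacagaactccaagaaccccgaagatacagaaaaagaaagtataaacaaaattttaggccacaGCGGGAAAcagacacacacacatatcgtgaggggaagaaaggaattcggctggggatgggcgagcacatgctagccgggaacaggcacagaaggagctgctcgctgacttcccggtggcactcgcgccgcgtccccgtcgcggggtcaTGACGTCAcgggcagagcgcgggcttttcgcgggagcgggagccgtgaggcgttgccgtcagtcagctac
Ddb1, chr19:10605347-10605646, plus strand: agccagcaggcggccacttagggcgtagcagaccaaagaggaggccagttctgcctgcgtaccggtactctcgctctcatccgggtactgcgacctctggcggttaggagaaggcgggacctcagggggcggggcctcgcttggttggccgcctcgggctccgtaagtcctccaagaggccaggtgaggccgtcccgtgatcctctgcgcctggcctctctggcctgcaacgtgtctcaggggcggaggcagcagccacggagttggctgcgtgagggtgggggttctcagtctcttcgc
Apex1, chr14:50924699-50924998, plus strand: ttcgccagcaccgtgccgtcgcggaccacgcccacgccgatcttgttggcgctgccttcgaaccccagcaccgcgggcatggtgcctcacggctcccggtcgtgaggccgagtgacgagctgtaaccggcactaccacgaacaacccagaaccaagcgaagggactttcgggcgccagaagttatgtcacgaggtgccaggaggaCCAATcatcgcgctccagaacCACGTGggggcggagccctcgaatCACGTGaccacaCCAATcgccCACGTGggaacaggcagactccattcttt

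The table held windows for 31 of the 38 members, 33 windows in all. TGACGT occurred in the windows of 5 members, which were Pms2, Mre11a, Brca1, Brca2 and Parp2, hence in 4 of 4 members that rose, and in 7.51% of the 32851 windows of all genes. In Brca2 its 2 matches overlap, since the sequence there reads alike on both strands. CACGTG occurred in 5 members, among them Apex1 with 3 matches, Parp1 and Parp2, and in 7.15% of all windows. These 2 motifs were chosen after some of the sequences had been read, so the counts carry no test. CCAAT occurred in 18 of the 33 windows and in 37.4% of all windows, and an E2F motif in 6 of 33 and in 2.26%. The HOX-PBX motifs TGATTTAT and TGATTTAC occurred in 0 of the 33 windows and in 1.53% of all windows. A match is a description of letters and no binding was measured here.

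**Figure D2:**
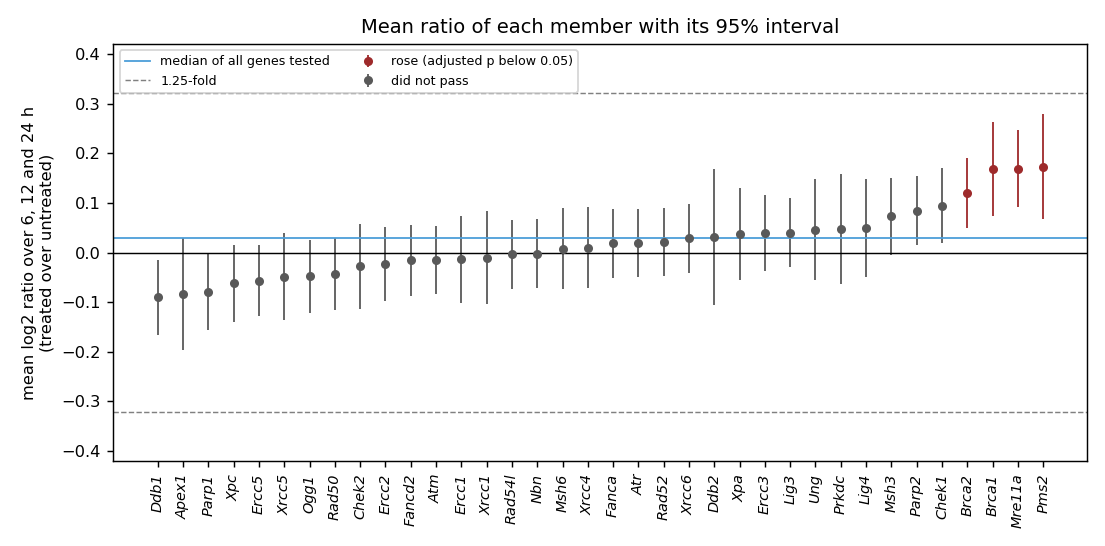
Mean log2 ratio over 6, 12 and 24 h (y axis) of the 36 members measured on every array, in rising order along the x axis, with 95% intervals from the limma fit. Brca2, Brca1, Mre11a and Pms2 passed the test, each interval lies between the dashed lines at 0.32 in size, and the solid coloured line is the median of all genes tested (0.03).

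In end joining 0 of 5 members passed. Prkdc, the catalytic subunit of DNA-PK, had signals of 153, 153 and 158 in treated cells, against 162, 146 and 142 in untreated cells. It was below its untreated level at 6 h and above it at 12 and 24 h, with ratios of -0.08, 0.07 and 0.15 and a mean of 0.05 ± 0.05. The Ku subunits Xrcc6 (0.03 ± 0.03) and Xrcc5 (-0.05 ± 0.04), and Lig4 (0.05 ± 0.04) and Xrcc4 (0.01 ± 0.03), the ligase and its scaffold, lay within the same range.

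Of 7 genes of single-strand break and base excision repair 0 passed. Parp1, the main poly(ADP-ribose) polymerase that senses nicks, had signals of 423, 478 and 392 in treated cells, against 452, 485 and 425 in untreated cells. Parp2, its relative, had 296, 288 and 265 in treated cells, against 276, 270 and 254 in untreated cells. Parp1 was lower in treated cells at each time (-0.10, -0.02 and -0.12) and Parp2 higher (0.10, 0.09 and 0.06). Their means of -0.08 ± 0.03 and 0.08 ± 0.03 did not pass (limma, adjusted p = 0.11 and 0.072), and the difference between the genes was not tested.

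Apex1, the endonuclease that cuts at sites without a base, had signals of 1343, 1544 and 1202 in treated cells, against 1333, 1590 and 1401 in untreated cells. Its ratio of -0.22 at 24 h was the lowest of any member at any time, beside 0.01 and -0.04 at 6 and 12 h, and the mean of -0.08 ± 0.05 did not pass (limma, adjusted p = 0.22). The uracil glycosylase Ung (0.05 ± 0.04), the 8-oxoguanine glycosylase Ogg1 (-0.05 ± 0.03), the ligase Lig3 (0.04 ± 0.03) and its scaffold Xrcc1 (-0.01 ± 0.04) did not pass. Ung had the highest member ratio at 6 h, 0.16, beside 0.02 and -0.04 at 12 and 24 h.

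In nucleotide excision repair 0 of 8 members passed. Xpc, which senses lesions across the genome, had signals of 749, 827 and 858 in treated cells, against 749, 885 and 912 in untreated cells. Its ratios at 12 and 24 h were -0.10 and -0.09, and its mean was -0.06 ± 0.03 (limma, adjusted p = 0.19). Ercc5, the endonuclease that cuts 3′ of the lesion, had 74.5, 72.1 and 76.5 in treated cells, against 75.6, 75.7 and 80.8 in untreated cells. It was lower in treated cells at each time, with a mean of -0.06 ± 0.03 that did not pass (limma, adjusted p = 0.20), and with Agilent's processed signals it fell by 0.39 (adjusted p = 0.029).

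Ddb1 and Ddb2 form the complex that binds ultraviolet damage, and Ddb2 is a p53 target in human cells. Ddb1 had signals of 431, 461 and 383 in treated cells, against 474, 475 and 410 in untreated cells. It was lower in treated cells at each time (-0.13, -0.04 and -0.10), with the lowest mean of the module, -0.09 ± 0.03, which did not pass (limma, adjusted p = 0.076). Ddb2 had 89.3, 96.3 and 114 in treated cells, against 96.6, 96.1 and 98.6 in untreated cells. It was below its untreated level at 6 h (-0.11), level with it at 12 h (0.00) and above it at 24 h (0.20), with a mean of 0.03 ± 0.06. Ercc1, which joins an endonuclease to the bubble (-0.01 ± 0.04), the TFIIH helicases Ercc2 (-0.02 ± 0.03) and Ercc3 (0.04 ± 0.03), and Xpa, which verifies the lesion (0.04 ± 0.04), did not pass.

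With loess normalisation, for all 36 members tested the 95% interval of the mean ratio lay within 0.32 of 0 in both directions, and 28 intervals covered 0. The outermost bounds were those of Pms2, 1.21-fold higher, and Apex1, 1.15-fold lower. Ratios of dim genes are drawn toward 1 by the offset of 50 added in background correction, so these bounds hold on that scale. They leave out a dye bias that is alike on every array, and they hold for loess only. For Mre11a the interval is that of an average over probes that differed. Its probe A_52_P47006 alone had a mean of 0.49 ± 0.03, beyond 0.32, and A_51_P446678 had 0.00 ± 0.03. With median centring Ercc5, Ercc2 and Atm had means of -0.80, -0.74 and -0.57, and with Agilent's processed signals Ercc5 had -0.39.

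Between 6 and 24 h, 0 of 37 members had a ratio that differed by the same 25% higher or 20% lower, where 1.6% of all genes were that much higher at 24 h and 1.04% lower. A dye bias equal on both arrays cancels in this difference. Ddb2 came nearest, with a difference of 0.32, followed by Prkdc (0.23) and Pms2 (0.22), of which the Pms2 value includes the change of probes. The lowest were Apex1 (-0.23) and Ung (-0.20). At 1.1-fold 5 members were higher and 4 lower, where 12.3% and 11.6% of all genes were. The sizes have no replicate check.

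**Figure D3:**
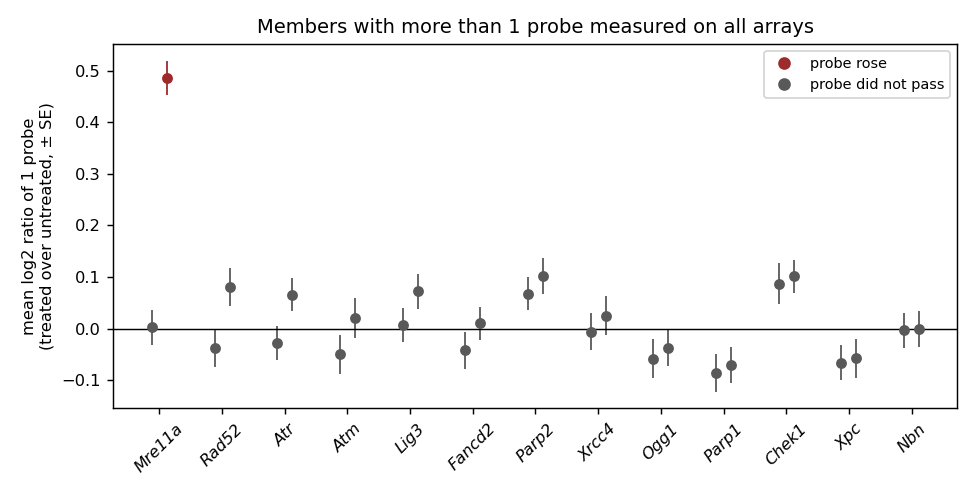
Mean log2 ratio over the times (y axis, with its SE) of each probe, for the 13 members with more than 1 probe measured on every array (x axis). The 2 probes of Mre11a lie 0.48 apart, and the next gap is that of Rad52 (0.12).

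Apart from Mre11a, probes of the same gene gave means within 0.12 of each other. There were 13 members with more than 1 probe measured on every array, and the median gap between a gene's probes was 0.03. The median size of a member's mean ratio was 0.04, so the gaps were near the size of the differences described. At single times probes could differ in sign, as for Atm at 24 h (-0.13 and 0.09) and Rad52 at 12 h (-0.10 and 0.12). At 6, 12 and 24 h, 54, 50 and 54 of the 68 probes were well above background with both dyes, 3, 5 and 4 in treated cells alone, 0 in untreated cells alone, and 11, 13 and 10 in neither. Over all probes 1723, 1686 and 1890 were so in treated cells alone and 255, 288 and 339 in untreated cells alone. Fitted probe by probe, 4 of 49 member probes rose, which belonged to the same 4 genes, and 0 fell, where 20.9% and 7.81% of 15867 probes rose and fell.

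Signals of 1 channel were also compared between arrays, where slide, scaling and time cannot be told apart. After scaling of the channels between arrays and with probes measured on every array, the members' untreated signals differed between 12 and 6 h by a median of 0.06, between 24 and 6 h by 0.11 and between 24 and 12 h by 0.08, in size on the log2 scale. The treated signals differed by 0.06, 0.09 and 0.07 over the same pairs. The median size of a member's ratio to untreated cells was 0.06, 0.05 and 0.05 at 6, 12 and 24 h. Ung had the largest difference between untreated channels, 0.37 between 24 and 6 h, larger than any member's ratio of treated to untreated cells.

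Genes of the same pathways outside the module gave a wider picture. Of 146 other repair and checkpoint genes tested 34 rose and 6 fell (23.3% and 4.11%, where 20.1% and 7.86% of all genes did), 4 were at least 25% higher at some time and 0 at least 20% lower. Without the 12 h array 3 rose and 1 fell, where 3.84% and 1.34% of all genes did. Among 32 other checkpoint genes 10 rose and 0 fell (31.2% and 0%), read against the same 20.1% and 7.86%. The largest mean was that of Uimc1, which brings BRCA1 to ubiquitinated chromatin (0.31, 0.51 and 0.61 at the 3 times, with a mean of 0.48 ± 0.06 and, by limma, adjusted p = 0.0047). Rif1, which protects broken ends from resection, stood at 0.49, 0.28 and 0.33 (mean 0.37 ± 0.04), and Cdc25a, a phosphatase degraded when checkpoints are active, at 0.38, 0.24 and 0.10 (0.24 ± 0.05).

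The shares of all genes, 20.1% that rose and 7.86% that fell, stand beside each count here. Of 47 other recombination and Fanconi genes 9 rose and 2 fell (19.1% and 4.26%). Among those that rose were Fancm (0.19) and the helicase Recql (0.19), and Sem1 and Faap24 fell by 0.18 and 0.14. Of 13 genes of end joining and single-strand break repair 3 rose, Aplf (0.19), Aptx (0.12) and Tdp1 (0.10), and 2 fell, the gap-filling polymerase Poll by 0.23 and Dclre1a by 0.15. Of 21 base excision and mismatch genes 7 rose, among them the sliding clamp Pcna (0.18) and Alkbh2 (0.17), and the ligase Lig1 fell by 0.15. Of 19 nucleotide excision genes 3 rose, among them Uvrag (0.13) and Gtf2h1 (0.12), and Xab2 fell by 0.14. Of 14 translesion genes Poli (0.21) and Rad18 (0.20) rose and 0 fell. With median centring Fancm, Sem1, Lig1, Xab2 and Rad18 changed sign.

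Targets of p53, the usual readout of a damage response, showed 4 that rose and 1 that fell of 24 tested (16.7% and 4.17%, against 20.1% and 7.86% of all genes), and without the 12 or 24 h array 1 or 2 rose and 0 fell. Cdkn1a, the cell cycle inhibitor p21, stood at -0.15, 0.03 and 0.21 at 6, 12 and 24 h, with a mean of 0.03 ± 0.06. Bax (0.00 ± 0.03) and Ccng1 (0.02 ± 0.03) did not pass. Gadd45b (0.34 ± 0.03), Trp53inp1 (0.28 ± 0.07) and Gadd45g (0.22 ± 0.06) rose, and Pmaip1, which encodes Noxa, fell by 0.15. Mdm2, the ligase of p53, rose by 0.13 ± 0.04 (limma, adjusted p = 0.042), and with the probes measured on every array its mean was 0.06 (adjusted p = 0.47). With median centring Mdm2, Gadd45g and Pmaip1 changed sign.

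Cell cycle genes were counted because many repair genes are made in S phase. Of all genes 20.1% rose and 7.86% fell. Of 41 replication and S phase genes 10 rose (24.4%), led by Pola1 (0.25), E2f1 (0.25) and Gins2 (0.15), and 4 fell (9.76%), led by Mcm6, Tk1 and Rfc2 at -0.24, -0.20 and -0.19. Of 30 genes of G2 and mitosis 5 rose (16.7%), led by Top2a (0.25), Ccnb1 (0.22) and Cenpf (0.19), and 3 fell (10.0%), Aurka, Nuf2 and Kif23 at -0.13, -0.12 and -0.11. With median centring Mcm6, Tk1, Rfc2, Aurka and Nuf2 changed sign. The part of these genes in the members' values was not tested.

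**Figure D4:**
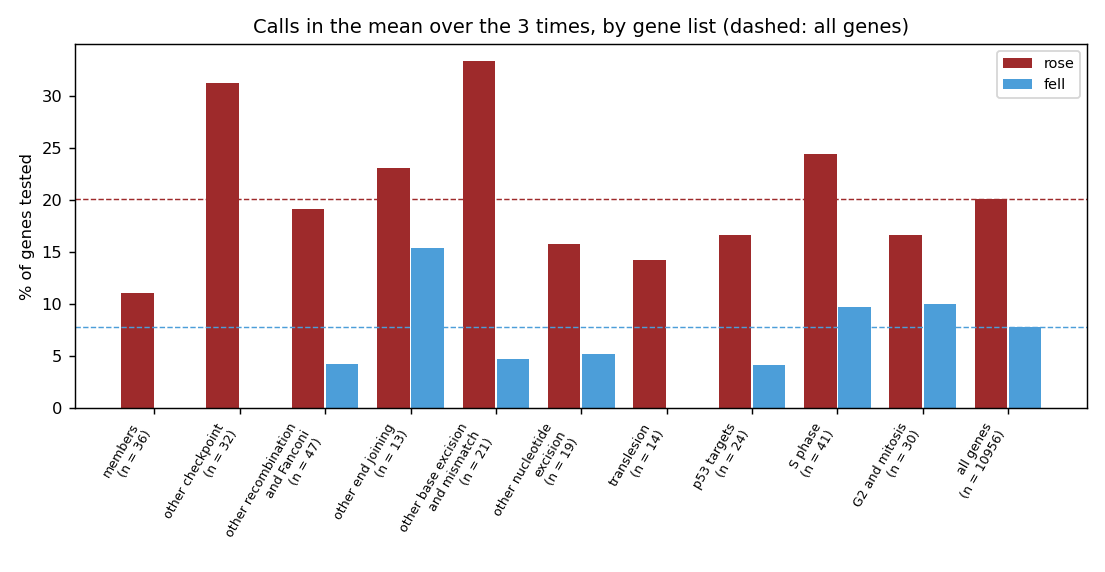
Percent of the genes tested in each list (y axis) that rose (red bars) or fell (blue bars) in the mean over the times, for the members, the other lists and all genes (x axis). Of the members 11.1% rose and 0% fell, and the dashed lines give the shares over all genes (20.1% and 7.86%).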

How the data were processed

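RNA of DB818-treated and untreated MigA9 cells was measured on 3 Agilent 2-colour mouse arrays. The scanner files that were deposited give the intensity of each spot and of its surroundings in Cy5 and Cy3, extracted with Agilent Feature Extraction 9.1.3.1 per the submitters' processing notes. A deposited value table repeats the log10 ratios of the scanner files (treated over untreated), differing by at most 0. The log2 ratios were computed here.

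Background was corrected by normexp with an offset of 50, on mean spot and median background signals, followed by loess for each array (limma 3.58.1 in R 4.3.3, with data.table, version 1.17.8). Control and outlier spots (37, 36 and 52 at 6, 12 and 24 h) were left out. Probes well above background with both dyes and unsaturated were averaged for each gene. RefSeq names were given to 22864 probes through their accession, 6732 through the symbol and 3498 through a synonym, and 8080 kept the name in the file. Of 72 probes matching a member or older synonym, 4 belonged to another gene and were dropped. Mean ratios were set against 0 by limma's eBayes on an intercept (2 residual and 4.82 prior degrees of freedom), adjusted over all genes at 0.05. The fit was tested on simulated data. Figures and promoter searches used matplotlib 3.10.9 and pandas 2.3.3 under Python 3.11.15.

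Members and lists were chosen with earlier results of these data known. The rule for named genes took the 12 members with the largest mean ratios and Atm, Atr, Chek1, Chek2, Brca1, Parp1, Prkdc, Xpc and Ddb2, up to 3 genes past the threshold each way from every other list, and Cdkn1a, Mdm2, Bax and Ccng1. Some genes that this rule picked from the other lists are not reported here. Promoters of the 2 highest and 2 lowest members were to be shown, and those of Brca1 and Brca2 were added after their values were seen. Alternatives covered background correction, normalisation, the dim-probe filter, the choice of probe, thresholds, array weights and leaving out each array. The 1.1-fold count, the fit of single probes, the probes measured on all arrays, Mre11a without each probe and the comparison of channels between arrays were chosen after seeing the data. Median centring was first computed over all spots, which shifted the ratios of all genes upward, and was then restricted to measured spots, also after its values were seen. For channel comparisons the arrays were scaled with limma's Aquantile method.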

Additional observations from a re-analysis of the deposited data

Results flagged for a closer look

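For 2 of the named genes the ratio to untreated cells had opposite signs at 6 and 24 h, each at least 0.1 in size. Ddb2 was higher at 24 h than at 6 h by 0.32 on the log2 scale, with a ratio of 0.20 at 24 h and -0.11 at 6 h. Cdkn1a was higher at 24 h by 0.35, with 0.21 at 24 h and -0.15 at 6 h. There was 1 array at each time, so these differences were not tested.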

How the results depend on the processing

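No paired analysis was possible because each time has 1 array and the groups share a single replicate number, given in accession order. The treated and untreated RNA of an array are already paired in its ratio. Each array lay on a slide of its own, so slide and time cannot be told apart. Probes near background limited Bard1, Palb2 and the second probes of Pms2, Brca2 and Brca1. Where an alternative changed a result below, the cause was not tested. Whether the changes with median centring, which does not adjust for spot brightness, followed that brightness was not tested either.

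Members that rose numbered 4. They were 5 with plain background subtraction, 4 with the brightest probe (Chek1 in place of Mre11a), 4 with the probes measured on all arrays and 4 probe by probe, 2 without the dim-probe filter (Brca2 and Mre11a), 1 with Agilent's processed signals (Mre11a), 8 with array weights and 9 with arrays centred on their median without loess (median centring). Leaving out 1 array gave 0 to 4: 0 without the 12 h array, 1 (Mre11a) without the 24 h array and 4 without the 6 h array. Over all genes the share that rose was 20.1%, and also 20.1% with plain background subtraction. It was 21.0% with the brightest probe, 20.6% with the probes measured on all arrays and 7.65% without the dim-probe filter. It was 3.84% without the 12 h array, 13.8% without the 24 h array and 20.7% without the 6 h array. With Agilent's processed signals it was 5.39%, with array weights 38.2% and with median centring 37.9%. Members that fell numbered 0, and 1 (Ercc5), 4 and 16 with Agilent's processed signals, array weights and median centring (5.84%, 19.4% and 40.9% of all genes). The median of all genes moved by less than 0.1 under every alternative.

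Other repair genes that rose numbered 34, and 8, 61 and 56 with Agilent's processed signals, median centring and array weights, and leaving out 1 array gave 3 to 27, with 3 being without the 12 h array. Those that fell numbered 6, and 53 and 17 with median centring and array weights, and leaving out 1 array gave 1 to 7, with 1 being without the 12 h array. For p53 targets, 4 rose, and 1, 9, 2 and 9 did so with Agilent's signals, median centring, no dim-probe filter and array weights, and leaving out 1 array gave 1 to 5, with 1 without the 12 h and 2 without the 24 h array. Of these targets 1 fell, and 0, 8, 2 and 4 did so with Agilent's signals, median centring, the brightest probe and array weights, and leaving out 1 array gave 0 to 1, with 0 without the 12 h and 0 without the 24 h array.

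Members at least 25% higher numbered 0 at each time. With median centring they were 2, 2 and 2 at 6, 12 and 24 h (15.6%, 11.9% and 15.7% of all genes). With Agilent's signals they were 2 at 12 h and 1 at 24 h (5.69% and 7.96% of all genes). With plain subtraction they were 1 at 12 h (Mre11a) and 2 at 24 h (Ddb2 and Pms2), where 3.30% and 5.87% of all genes were. At 1.1-fold they were 1, 5 and 5 (17.1%, 15.4% and 19% of all genes). Members at least 20% lower also numbered 0, and were 13, 10 and 11 with median centring (29.1%, 28.0% and 30.0% of all genes). They were 2 at 6 h and 2 at 12 h with Agilent's signals (7.11% and 6.49% of all genes), and 1 at 24 h at 1.1-fold (9.11% of all genes). For the ratio at 24 h over that at 6 h, 5, 2 and 1 members were 25% higher with Agilent's signals, median centring and plain subtraction, and 1 was 20% lower with median centring. The shares of all genes for these last counts are not given, so the counts cannot be read as a result about the members. At 1.5-fold, with loess and normexp as in the report, 0 members were higher or lower at 6, 12 or 24 h.

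The members' median ratio at 6 h was -0.074 with Agilent's signals and -0.096 with median centring. At 12 h it was 0.041 with plain subtraction, -0.016 and -0.016 with those 2 settings and 0.0097 with the brightest probe, and at 24 h -0.057 and -0.11. Over the times it was 0.014, and -0.036 and -0.075 with those 2 settings.

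With median centring the mean ratio changed sign, and was called in that setting or here, for 25 named genes. Chek1, Brca2, Rad52, Mre11a, Xrcc4, Prkdc, Lig3, Lig4 and Ddb2 stood at -0.26, -0.10, -0.48, -0.083, -0.43, -0.15, -0.38, -0.52 and -0.46, and Xrcc1, Xpc and Apex1 at 0.30, 0.17 and 0.22. Among the other genes Fancm, Gadd45g, Rad18 and Mdm2 stood at -0.37, -0.096, -0.063 and -0.048. Lig1, Aurka, Nuf2, Sem1, Xab2, Pmaip1, Mcm6, Tk1 and Rfc2 stood at 0.24, 0.28, 0.10, 0.46, 0.080, 0.095, 0.35, 0.11 and 0.18. No other setting reversed a named gene.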
